A study of Mus musculus with 10 samples.

Results

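The Tmed genes encode the p24 proteins, a family of cargo receptors of the early secretory pathway. The 10 members followed were Tmed1 to Tmed10, and their probe sets were those that the platform annotation assigns to 1 of these genes alone. That gave 21 probe sets for 9 members among the 45101 probe sets of the array. Tmed1 had no such probe set and was not analysed here. The family was singled out because Tmed5 was higher in the mutant in an earlier analysis of these same arrays, so the Tmed5 values are given below as a description.

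Transcript levels had been measured in the aorta of male mice, 5 arrays from wild-type mice of strain C57Bl/6 and 5 from mice with an NPAS2 mutation on a C57Bl/6J background. Npas2 encodes a circadian transcription factor that pairs with Bmal1. All mice had lived at least 2 weeks in 12 h of light and 12 h of darkness, then at least 30 h in constant darkness, and were killed at zeitgeber time 14 h. The labels used here state neither the age of the mice nor the nature of the mutation, and they do not say that each array had its own mouse, so the p-values below reflect array-to-array spread that may be technical. The labels name the thoracic aorta in one field and in another a longer stretch, from the arch to beyond the femoral branches. The question of the design was which transcripts differ between the strains.

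The p24 proteins span the membrane a single time, with a GOLD domain in the lumen and a short cytoplasmic tail that binds the COPI and COPII vesicle coats. They cycle between the endoplasmic reticulum and the Golgi apparatus as mixed complexes that join members of the alpha, beta, gamma and delta subfamilies, and loss of a member can destabilise its partners. They are best known for carrying GPI-anchored proteins out of the endoplasmic reticulum and for a part in vesicle formation and Golgi structure. Of the members measured, Tmed4 and Tmed9 are of the alpha, Tmed2 of the beta, Tmed3, Tmed5, Tmed6 and Tmed7 of the gamma and Tmed10 of the delta subfamily. Tmed8 is a GOLD-domain protein that shares the name.

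The values are log2 levels as deposited, from 1.10 to 14.7 over all arrays, and precision is set by having 5 arrays in each group. All 6 smooth muscle markers examined, Myh11 and Acta2 among them, were above the array median on every array, as the label aorta has it. Npas2 itself was dim: its brighter probe set (1421037_at) averaged 3.71 in wild type against 3.43 in mutant arrays, and the labels do not place it in the transcript, so it does not check the genotype. The mean of 8 skeletal muscle markers was 9.02 or more on 4 arrays (wild type F16 and mutants F12, F19 and F20) and between 3.39 and 6.08 on the other 6. The mean of 8 brown fat markers lay between 8.25 and 8.94 on the wild-type and between 9.07 and 9.67 on the mutant arrays. In a bulk sample, more cells of a type and more RNA per cell cannot be told apart.

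Tmed5, a gamma member and the one that chose the family, had brighter probe sets about 1.6 to 1.8 times as high in the mutant, and no other member passed the test. On 1424573_at the wild-type log2 levels were 8.59 (F11), 8.49 (F14_2), 8.58 (F15), 8.41 (F16) and 8.38 (F17). The mutant levels were 9.36 (F12), 9.16 (F13), 9.06 (F18), 9.12 (F19) and 9.22 (F20). The lowest mutant array was thus 0.47 above the highest wild-type array. The means were 8.49 ± 0.10 and 9.18 ± 0.11 (SD, n = 5 each), a log2 change of 0.69 ± 0.07 (SE) or 1.62-fold.

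On the probe set 1424574_at wild type had 8.59 (F11), 8.21 (F14_2), 8.84 (F15), 8.69 (F16) and 8.47 (F17), and the mutant had 9.46 (F12), 9.14 (F13), 9.27 (F18), 9.31 (F19) and 9.26 (F20). The groups did not overlap here either, with a gap of 0.30, and the change was 0.73 ± 0.11 (SE) or 1.65-fold. Wild type varied more than the mutant on this probe set, with SDs of 0.24 and 0.12. The third, 1431789_s_at, had 5.51 (F11), 5.12 (F14_2), 5.76 (F15), 5.52 (F16) and 5.52 (F17) in wild type against 6.78 (F12), 6.51 (F13), 5.96 (F18), 6.21 (F19) and 6.09 (F20) in the mutant. Its change of 0.83 ± 0.16 (SE), or 1.77-fold, was measured over mutant arrays that spread more widely (SD 0.33) but again lay entirely above wild type. Mutant F12, the array with the highest brown fat mean (9.67) and the second highest skeletal muscle mean (10.7), was the highest on all 3 of these probe sets. Whether those tissues took part in its levels was not tested.

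Of the other Tmed5 probe sets, 1458962_at had overlapping groups, from 3.77 to 4.35 in wild type and from 4.13 to 4.56 in the mutant, with a change of 0.20 ± 0.13 (SE). The last, 1445343_at, was too dim to be tested and ran from 2.72 to 3.20 in wild type and from 2.71 to 2.77 in the mutant. The annotation does not say which part of the transcript each probe set reads. In the limma fit over all tested probe sets, the values by which Tmed5 was chosen were adjusted p-values of 0.00721 for 1424573_at and 0.0320 for 1424574_at, just inside the threshold of 0.05. The probe set 1431789_s_at lay just outside it at 0.0747. These 2 probe sets were the called ones among the 15 tested of the family, where 0.215% of all 22340 tested probe sets were called, 0.094% higher and 0.121% lower (21 and 27, against 34 and 18 with arrays centred on their tested probe sets). Groups that did not overlap were seen on 3 of the 15, each with the mutant higher, against 4.01% of all tested (1.5% higher and 2.5% lower in the mutant). Tmed5 was chosen on this contrast, so neither count is evidence about the family.

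**Figure D1:**
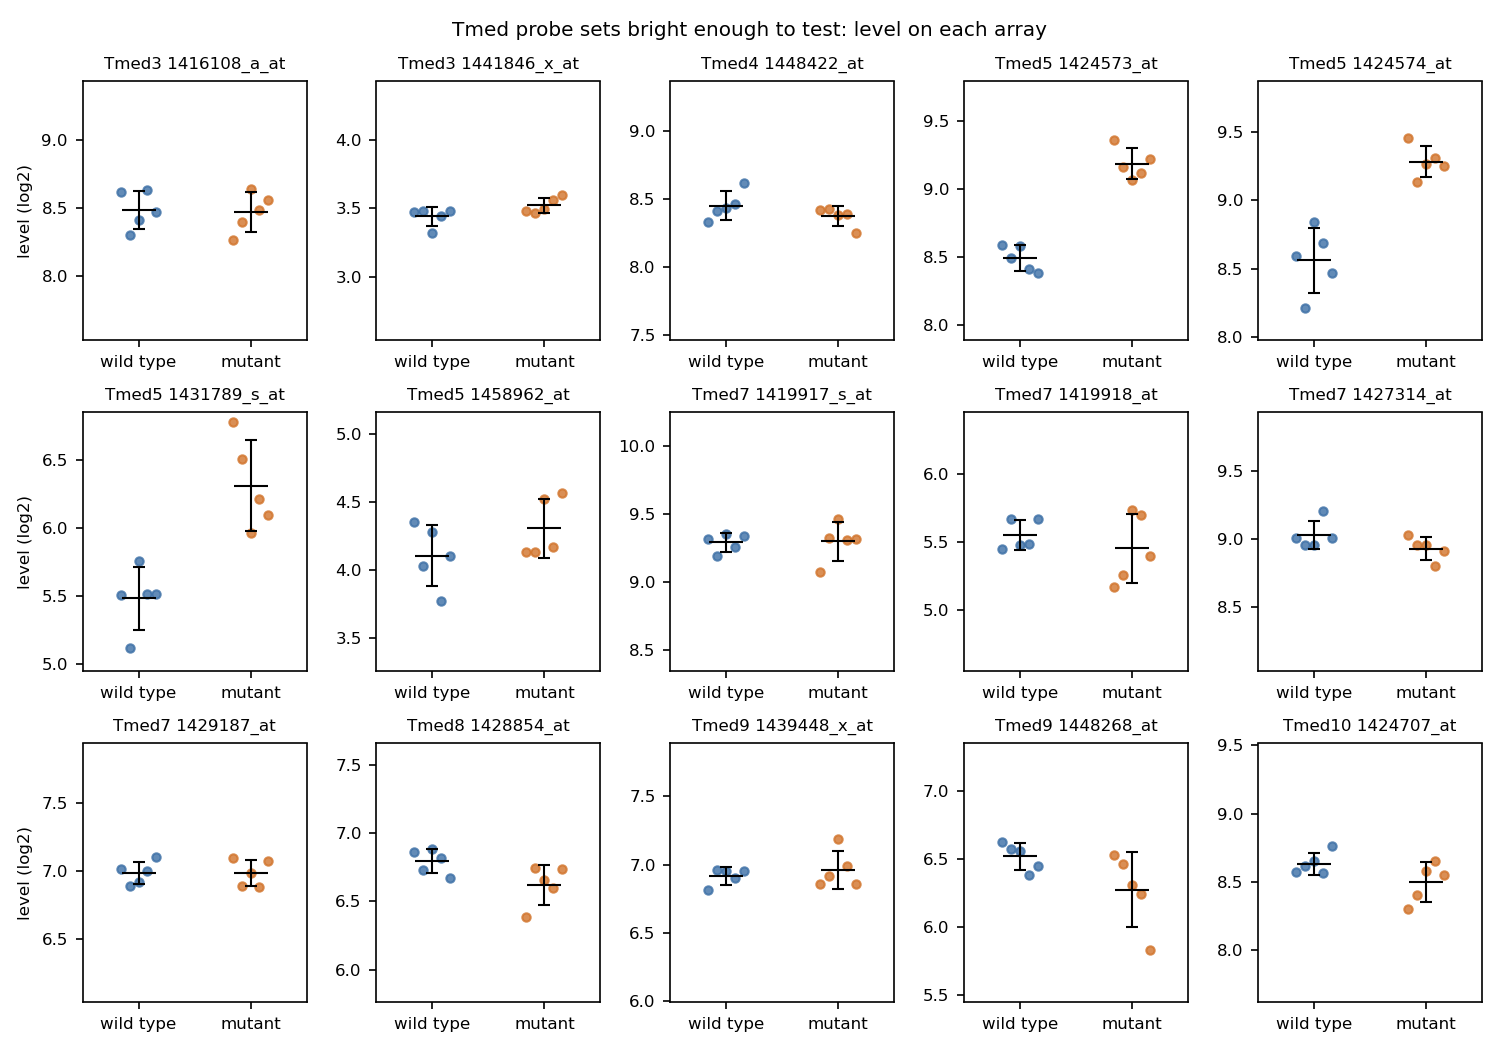
Log2 level of the 15 tested Tmed probe sets on each array (vertical axis, each panel spanning the same range), wild type in blue and mutant in orange, with mean and SD (n = 5 each). Mutant and wild-type points are apart on 3 Tmed5 probe sets and overlap in every other panel.

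The 2 called Tmed5 probe sets did not depend equally on the choice of arrays. The refits reuse the values by which Tmed5 was chosen, so they describe the call and add no evidence for it. With each array left out in turn, 1424573_at stayed under an adjusted p of 0.05 in all 10 fits, with a change between 0.65 and 0.72. The probe set 1424574_at did so only without wild type F14_2 or F15, that is in 2 of 10 fits. Its change lay between 0.64 and 0.80, with a limma adjusted p of up to 0.0849. These 10 fits called between 9 and 43 of all tested probe sets, against 48 with all arrays. With the 4 arrays of high skeletal muscle signal left out, a fit of 4 wild-type and 2 mutant arrays gave changes of 0.60 ± 0.09, 0.67 ± 0.17 and 0.76 ± 0.22 (SE) on 1424573_at, 1424574_at and 1431789_s_at. None of them passed there, with adjusted p-values from 0.481 to 0.635, in a fit that called 0 probe sets in all.

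Promoter sequence was set beside these levels because Npas2 and its partner bind the E-box CACGTG. The windows ran from 250 bases before to 50 bases after the gene's start, from RefSeq on GRCm38.p6, and 7 of the 9 measured members had an entry (Tmed2 and Tmed7 had none). CACGTG, searched on both strands, was in 7.15% of all 32851 promoters of this length. It occurred in those of Tmed8 and Tmed10 and not in that of Tmed5, and these 3 are shown 5′ to 3′ on the gene's own strand, which is minus for each. Capitals mark CACGTG. Tmed5 lies at chr5:108132571-108132870, Tmed10 at chr12:85374668-85374967 and Tmed8 at chr12:87200180-87200479.

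Tmed5: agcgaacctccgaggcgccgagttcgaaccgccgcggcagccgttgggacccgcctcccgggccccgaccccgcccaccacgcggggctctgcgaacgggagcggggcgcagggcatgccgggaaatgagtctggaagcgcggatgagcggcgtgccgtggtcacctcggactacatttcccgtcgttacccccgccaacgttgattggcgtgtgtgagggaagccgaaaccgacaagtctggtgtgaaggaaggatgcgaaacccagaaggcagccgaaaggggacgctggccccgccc

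Tmed10: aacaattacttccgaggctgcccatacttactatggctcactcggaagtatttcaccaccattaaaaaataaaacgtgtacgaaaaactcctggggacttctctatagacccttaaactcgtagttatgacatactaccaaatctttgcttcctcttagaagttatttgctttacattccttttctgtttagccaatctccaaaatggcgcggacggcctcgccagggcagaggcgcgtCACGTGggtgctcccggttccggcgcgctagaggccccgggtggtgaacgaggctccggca

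Tmed8: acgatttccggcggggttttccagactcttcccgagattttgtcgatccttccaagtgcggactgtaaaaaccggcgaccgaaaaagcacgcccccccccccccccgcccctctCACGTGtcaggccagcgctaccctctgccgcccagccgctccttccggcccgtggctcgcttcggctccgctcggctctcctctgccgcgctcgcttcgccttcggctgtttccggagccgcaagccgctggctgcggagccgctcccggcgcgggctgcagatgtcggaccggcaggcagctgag

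The first base of the E-box was at position -11 from the start of Tmed10 and at -136 from that of Tmed8. The related sequence CACGTT was in the Tmed10 window and in 4.68% of all promoters. The D-box TTATGTAA (0.938% of all) and the endoplasmic reticulum stress element, CCAAT and CCACG with 9 bases between them (0.119% of all), were in none of the 7, searched on both strands. The Tmed5 window was 68.3% G or C, where the median of all promoters was 52.7% and 12% were as rich or richer. A match of letters is not a bound site, and a missing match covers this window only.

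The other members were measured on 11 tested probe sets of 6 genes, and 0 of them passed the test (limma, adjusted p from 0.332 to 0.999). At an unadjusted p of 0.05 the count was also 0, where 15.3% of all tested probe sets passed, and the groups overlapped on every one of the 11. Their changes ran from -0.24 to 0.08 with a median of -0.08, beside a median of -0.03 over all tested probe sets. The 95% intervals of the 11 changes lay between -0.51 and 0.20, so each excluded a rise of the size seen on 1424573_at. That holds for the probe set and not always for the transcript. The dimmer Tmed5 probe set 1458962_at, with an interval from -0.09 to 0.48, excluded such a rise as well. The mutant mean was higher on 3 of the 11 and lower on 8. Over all 10945 genes, each on its brightest tested probe set, it was higher for 4831 and lower for 6114.

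In the gamma subfamily, to which Tmed5 belongs, Tmed7, also known for carrying the receptor Tlr4 to the cell surface, was read by several bright probe sets. On 1419917_s_at wild type lay between 9.19 and 9.35 and the mutant between 9.08 and 9.46, with a change of 0.01 ± 0.07 (SE, adjusted p = 0.971). On 1427314_at the change was -0.10 ± 0.07 (adjusted p = 0.493), on 1419918_at -0.10 ± 0.12 (adjusted p = 0.702) and on 1429187_at the means were 6.99 ± 0.08 and 6.99 ± 0.10 (SD, n = 5 each). The 95% intervals of these 4 ran from -0.35 to 0.17. Tmed3, another gamma member, had 8.49 ± 0.14 in wild type and 8.47 ± 0.15 in the mutant on 1416108_a_at (SD, n = 5 each), a change of -0.02 ± 0.09 (SE, adjusted p = 0.941). Its dim probe set 1441846_x_at had a change of 0.08 ± 0.05 (adjusted p = 0.484). Tmed6, a gamma member of restricted tissue expression, was dim, between 2.28 and 2.34 on all 10 arrays.

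In the alpha subfamily, Tmed4 had 8.45 ± 0.11 in wild type and 8.37 ± 0.07 in the mutant on 1448422_at (SD, n = 5 each), a change of -0.08 ± 0.07 (SE, adjusted p = 0.569). The probe sets of Tmed9, whose protein carries a dilysine retrieval signal for the COPI coat, differed from each other. On 1448268_at the wild-type levels were 6.63 (F11), 6.57 (F14_2), 6.56 (F15), 6.39 (F16) and 6.45 (F17), and the mutant levels 6.53 (F12), 6.47 (F13), 6.31 (F18), 6.24 (F19) and 5.83 (F20). Mutant F20 was the lowest array, and the groups overlapped. The change there was -0.24 ± 0.12 (SE, adjusted p = 0.360), the lowest among the 11, and it was -0.13 without mutant F20 and -0.47 with the brown fat covariate. On 1439448_x_at it was 0.04 ± 0.07 (adjusted p = 0.783).

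Tmed10 and Tmed2, the delta and beta partners on which most p24 complexes rest, were also read mainly by probe sets shared with a pseudogene or a predicted gene. On its own probe set 1424707_at Tmed10 had 8.57 (F11), 8.61 (F14_2), 8.65 (F15), 8.57 (F16) and 8.76 (F17) in wild type and 8.30 (F12), 8.40 (F13), 8.58 (F18), 8.66 (F19) and 8.55 (F20) in the mutant. Mutants F12, F13 and F20 lay below every wild-type array and F18 and F19 did not, and the change of -0.14 ± 0.08 (SE) did not pass (adjusted p = 0.413). The own probe set of Tmed2, 1460128_at, was dim, with 2.54 ± 0.03 and 2.58 ± 0.03 (SD, n = 5 each). The 6 probe sets that match both Tmed2 and Gm10698 and the 4 that match both Tmed10 and Tmed10-ps cannot be assigned to a single gene. Their changes ran from -0.12 to 0.03 with adjusted p-values from 0.349 to 0.952, and the groups overlapped on all 10. Their 95% intervals lay between -0.32 and 0.23.

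Tmed8 had 6.86 (F11), 6.73 (F14_2), 6.88 (F15), 6.82 (F16) and 6.67 (F17) in wild type and 6.38 (F12), 6.74 (F13), 6.65 (F18), 6.60 (F19) and 6.74 (F20) in the mutant on 1428854_at. The mean of wild type, 6.79, was above each of the 5 mutant levels, though the groups overlapped, and the change was -0.17 ± 0.08 (SE, adjusted p = 0.332). The 6 dim probe sets, the own probe set of Tmed2 and the only one of Tmed6 among them, had changes between -0.11 and 0.07. Exact two-sided permutation tests gave unadjusted p-values from 0.0556 to 0.532 for these 6, where 0.00794 is the smallest that 5 against 5 arrays allow. Tmed2 and Tmed6 therefore had no own probe set in the fit.

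**Figure D2:**
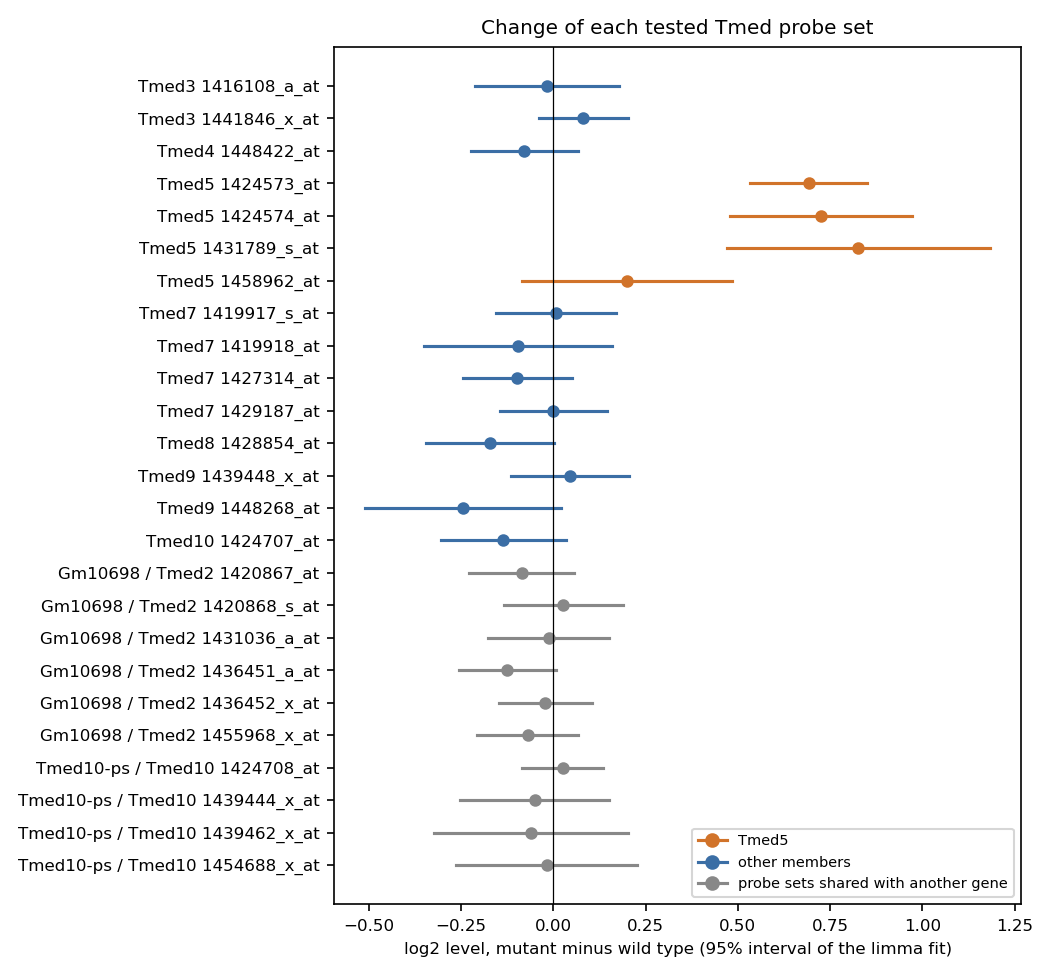
Log2 change, mutant minus wild type, of each tested Tmed probe set (horizontal axis) with its 95% interval from the limma fit, n = 5 arrays per group. Tmed5 is orange, other members blue and probe sets shared with another gene grey. The intervals of 3 Tmed5 probe sets start at 0.47 or above, and all others include 0.

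The mean of the brown fat markers, like Tmed5 on 3 probe sets, was higher on every mutant than on every wild-type array. Brown fat adheres to the aorta in the chest of a mouse, and its 8 markers, Ucp1, Cidea, Elovl3, Cox7a1, Cox8b, Ppargc1a, Prdm16 and Dio2, averaged 8.71 ± 0.28 in wild type and 9.38 ± 0.22 in the mutant (SD, n = 5 each). Of the 8 markers 7 had a higher mean in the mutant, 0 were called by limma and 5 had an unadjusted p under 0.05. Over all 10945 genes tested 15% had an unadjusted p under 0.05, a share to set beside the marker counts below as well. Prdm16, the marker with a lower mean, had a change of -0.27 and Ppargc1a one of 0.02. Elovl3 had by far the largest change, 2.57, with 2.34 to 5.82 in wild type and 5.99 to 7.61 in the mutant. On every other marker of the list the groups overlapped, so the lack of overlap in the mean leans on Elovl3. The summed linear level of the 8 ran from 10808 to 17513 in wild type and from 16071 to 24374 in the mutant. The dimmest at its lowest was Elovl3, at 2.34 on wild type F17, and 7 of the 8 were above the array median on every array. With the marker mean as a covariate, the Tmed5 changes were 0.45 ± 0.10 (1424573_at), 0.53 ± 0.19 (1424574_at) and 0.40 ± 0.25 (1431789_s_at, SE), and the adjusted p-values were 0.405, 0.638 and 0.774. That fit called 0 of all probe sets, and the covariate has no overlap between wild type and mutant. With the skeletal muscle mean as covariate the changes on these 3 were 0.68, 0.70 and 0.80, and with the white adipocyte mean, which was 9.76 ± 0.22 (wild type) and 9.70 ± 0.16 (mutant), 0.68, 0.73 and 0.85. The white adipocyte mean joins shifts of both signs. Of its 4 markers 3 had a higher mutant mean, and 2 had an unadjusted limma p under 0.05, Lep with a change of -0.78 and Cidec with 0.28. None was called. The smooth muscle mean was 11.99 ± 0.09 in wild type against 11.81 ± 0.09 in the mutant (SD, n = 5 each), with overlap. Each of its 6 markers had a lower mutant mean, with 4 under an unadjusted limma p of 0.05 and 0 called. On Myh11 and Lmod1 the mutant arrays all lay below wild type, as on 2.5% of all tested probe sets. The macrophage and leukocyte mean was 6.61 ± 0.09 in wild-type and 6.85 ± 0.16 in mutant arrays (SD, n = 5 each), with overlap, and 5 of its 6 markers had a higher mutant mean. Adgre1, Cd14 and Lyz2 of that list had changes of 0.35, 0.45 and 0.36, each with an unadjusted limma p under 0.05 and none called, and the summed linear level ran from 1107 to 1366 and from 1249 to 1822. The part of brown fat in the Tmed5 result was not tested beyond these values, and that of macrophages and leukocytes was not tested.

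Within the groups, where the difference between the strains is removed, the 15 tested probe sets were also compared with the marker means, a comparison chosen after the data were seen. It covered 60 relations, 15 probe sets against the brown fat, white adipocyte, skeletal muscle and smooth muscle means, over 10 arrays. None passed after adjustment, and 4 had an unadjusted p under 0.05, each of them with brown fat. For Tmed5 on 1424573_at Pearson's r was 0.85 (exact permutation p = 0.00208, adjusted p = 0.0625) and Spearman's rho 0.80 (exact permutation p = 0.0192, adjusted p = 0.448). Within wild type alone r was 0.85 and within the mutant 0.87, and without wild type F17 and mutant F18, the arrays farthest out, it was 0.84. On 1431789_s_at r was 0.57 and on 1424574_at 0.39, with exact permutation p-values of 0.0981 and 0.351 (adjusted 0.628 and 0.817) and rho of 0.50 and 0.45 (exact permutation p = 0.192 and 0.246). Without F17 and F18 they were 0.86 and 0.48. On 1458962_at r was -0.13 (exact permutation p = 0.738, adjusted p = 0.882), with rho of -0.15 (exact permutation p = 0.735, adjusted p = 0.901), and 0.12 without F17 and F18.

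The r of the other members with the brown fat mean had both signs, from -0.74 to 0.41, and none passed after adjustment. For Tmed7 on 1419918_at r was -0.74 (exact permutation p = 0.00146, adjusted p = 0.0625) and rho -0.95 (exact permutation p = 0.00125, adjusted p = 0.0750), with r of -0.75 without F17 and F18. For Tmed10 on 1424707_at r was -0.74 (exact permutation p = 0.0133, adjusted p = 0.267) and rho -0.60 (exact permutation p = 0.109, adjusted p = 0.503), with r of -0.70 without F17 and F18. For Tmed9 on 1439448_x_at r was -0.64 (exact permutation p = 0.0418, adjusted p = 0.627), rho -0.75 (exact permutation p = 0.0336, adjusted p = 0.448) and r without F17 and F18 -0.48. On other probe sets r was positive, at 0.41 for Tmed9 on 1448268_at (0.72 without F17 and F18), 0.13 for Tmed7 on 1427314_at and 0.08 for Tmed8 on 1428854_at, with adjusted p-values by exact permutation of 0.817, 0.882 and 0.931. Their rho was 0.60, 0.45 and 0.30, with adjusted p-values by exact permutation of 0.503, 0.778 and 0.796. The probe sets of Tmed7 and of Tmed9 thus differed in sign. The points of these relations share their arrays, so any property of an array acts on all of them.

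**Figure D3:**
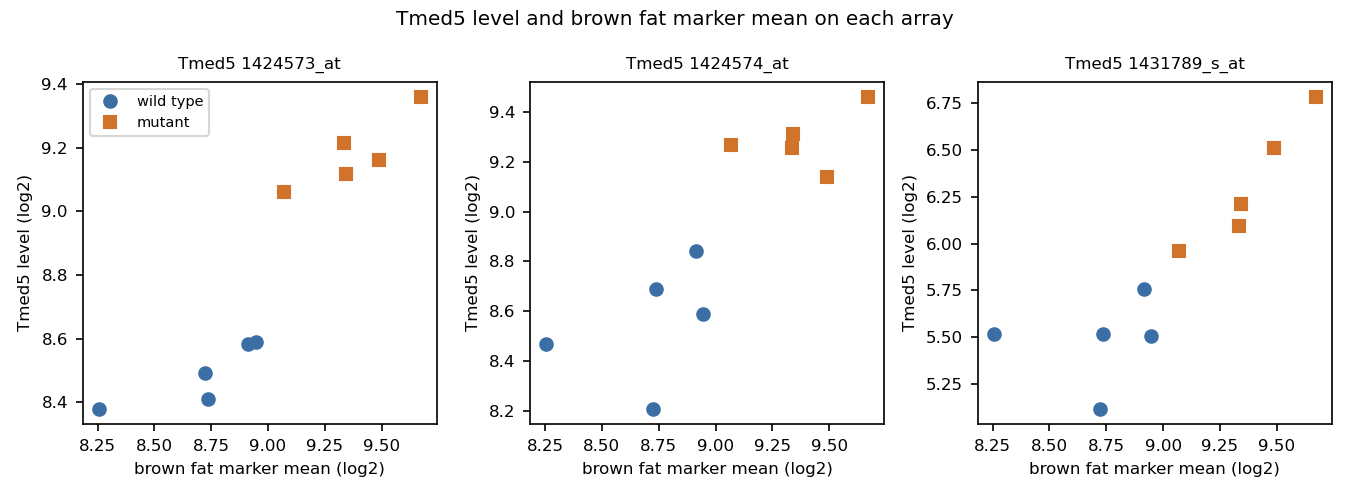
Log2 level of Tmed5 on 3 probe sets (vertical axes) against the mean log2 level of 8 brown fat markers (horizontal axis), 1 point per array, wild type as blue circles and mutant as orange squares. Mutant arrays are higher on both axes in every panel, and on 1424573_at the points also climb within each group.

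Shared variation among the members was examined next. With group means removed, the brightest tested probe sets of 7 members gave 21 pairs, and 4 Tmed5 probe sets gave 6 more. None of the 27 passed after adjustment (lowest adjusted p = 0.496), and 2 had an unadjusted exact permutation p under 0.05. Pairs of Tmed5 probe sets, which read the same gene, did not pass either, so the lack of passes does not show that members vary apart. Between members r ran from -0.52 to 0.69 with a median of 0.17. The highest was between Tmed3 and Tmed7 (r = 0.69, exact permutation p = 0.0369, adjusted p = 0.496, rho = 0.35, exact permutation p = 0.380, adjusted p = 0.942), and it was 0.14 without mutant F12 and wild type F14_2, the arrays farthest out for Tmed3. Tmed5 was compared with the 6 other members on 1424574_at alone, and its r with them lay between -0.17 and 0.17. Its r with Tmed8 was 0.75 within wild type and -0.94 within the mutant, and with Tmed7 0.70 and -0.69. With Tmed9 and Tmed10 it was negative in both groups.

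Among the Tmed5 probe sets themselves, r was 0.63 between 1424574_at and 1431789_s_at (exact permutation p = 0.0339, adjusted p = 0.496, rho = 0.50, exact permutation p = 0.192, adjusted p = 0.942), and 0.34 without wild type F14_2 and F15, the arrays farthest out. It was 0.59 between 1424573_at and 1431789_s_at (exact permutation p = 0.110, adjusted p = 0.496, 0.29 without mutant F12 and wild type F11) and 0.39 between 1424573_at and 1424574_at (exact permutation p = 0.268, adjusted p = 0.705, 0.21 without the same arrays). The remaining probe set, 1458962_at, gave r between -0.32 and 0.17 with these 3.

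**Figure D4:**
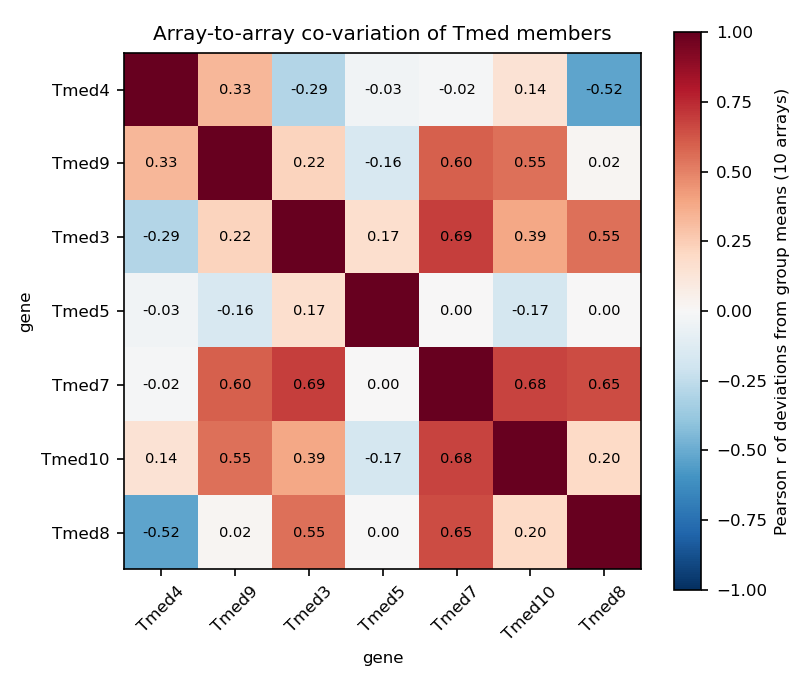
Pearson r between the brightest tested probe sets of 7 Tmed members, from deviations of 10 arrays from their group means (colour scale from -1 to 1, with r printed in each cell). The Tmed5 row, read on 1424574_at alone, lies between -0.17 and 0.17, and other Tmed5 probe sets were not compared with the members. Tmed7 gives its highest values with Tmed3, Tmed10 and Tmed8.

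By the same deviations, the 5 genes whose pattern was most like the mean of the 4 tested Tmed5 probe sets over the 10 arrays were Tnxb (r = 0.97), Snx10 (0.97), Slc38a10 (0.96), Cyrib (0.95) and Cox11 (0.94). Over all 22336 other tested probe sets, the 5th and 95th percentiles of r were -0.53 and 0.62, and 20 were above 0.9. Tnxb, which encodes the matrix protein tenascin X, had a change of -0.24 between the groups and Slc38a10, an amino acid transporter, of -0.01 (adjusted p = 0.413 and 0.965). Snx10 had a change of 0.36 and Cyrib of 0.17 (limma adjusted p = 0.287 and 0.435), both with overlap. Cox11, a factor in assembly of cytochrome c oxidase, had one of 0.27 (adjusted p = 0.158) with no overlap between the groups.

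The machinery in which p24 proteins work was compared through 6 lists of 84 genes, of which 79 were tested, each on its brightest tested probe set. None of the 79 passed in either direction (limma), where 0.183% of all 10945 genes were called. At an unadjusted p of 0.05 there were 6, of which 3 were higher and 3 lower, where 15% of all genes passed. The median change was -0.03 over the 79 and -0.02 over all genes, and the 79 changes ran from -0.28 to 0.18. The mutant mean was higher for 24 and lower for 55 of the 79. Of all 10945 genes it was higher for 4831 and lower for 6114, a share to set beside the counts of each list below. As deposited, the median of the tested probe sets differed by -0.06, mutant minus wild type.

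The COPII coat forms the vesicles that leave the endoplasmic reticulum, and the mutant mean was higher for 5 and lower for 10 of its 15 tested genes. Sec24d, a cargo-binding coat subunit that recognises sorting signals in cytoplasmic tails, had a change of -0.28 ± 0.07 (SE, adjusted p = 0.144, lower in 5 of 5 mutant arrays than in wild type on average), and Sar1b, the GTPase that starts the coat, 0.16 ± 0.10 (adjusted p = 0.432). For the COPI coat of retrograde vesicles 3 of 17 had a higher mean. Arfgap1, which stimulates GTP hydrolysis by Arf1 on the coat, had a change of -0.22 ± 0.12 (adjusted p = 0.399), and Copz2, a coat subunit, -0.16 ± 0.07 (adjusted p = 0.335).

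Other cargo and retrieval receptors were split, with 8 of 16 higher. Surf4, a cargo receptor for soluble proteins, had a change of 0.17 ± 0.07 (adjusted p = 0.294) on its brightest probe set 1455822_x_at and between -0.03 and 0.06 on the other 4. Rer1, a retrieval receptor of the Golgi, had 0.15 ± 0.07 (adjusted p = 0.324). Of 17 tethers, SNAREs and Golgi matrix proteins 4 had a higher mean. Uso1, a tether of vesicles at the Golgi, had a change of -0.23 ± 0.09 (adjusted p = 0.276) and Use1, a SNARE of retrograde fusion, -0.21 ± 0.06 (adjusted p = 0.177). The change of Use1 was -0.07 (adjusted p = 0.654) on the nearly as bright 1423817_s_at and 0.02 on the dim 1453430_at. Bet1, a SNARE of transport to the Golgi that is named after its value was seen, had 0.18 ± 0.07 (adjusted p = 0.265).

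Genes of GPI anchor transfer and remodelling, which prepare the best-known p24 cargo, had 2 of 8 higher. Gpaa1, a subunit of the transamidase that attaches the anchor, had -0.17 ± 0.12 (adjusted p = 0.516) on 1455954_x_at and 0.26 ± 0.15 (adjusted p = 0.425) on 1438152_at. Mppe1, which trims the anchor, had 0.10 ± 0.06 (adjusted p = 0.448). Of 6 genes of Wnt secretion 2 had a higher mean. Wls, the Wnt carrier, had -0.16 ± 0.08 (adjusted p = 0.344) and Porcn, the Wnt acyltransferase, -0.08 ± 0.06 (adjusted p = 0.516). On its other tested probe sets, 1423825_at and 1437434_a_at, Wls had -0.02 and -0.10. Vps35, a retromer subunit also named after its value was seen, was the 1 gene of the 79 without overlap between the groups, where 4.21% of all genes showed none. Its change was 0.07 ± 0.05 (adjusted p = 0.468).

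**Figure D5:**
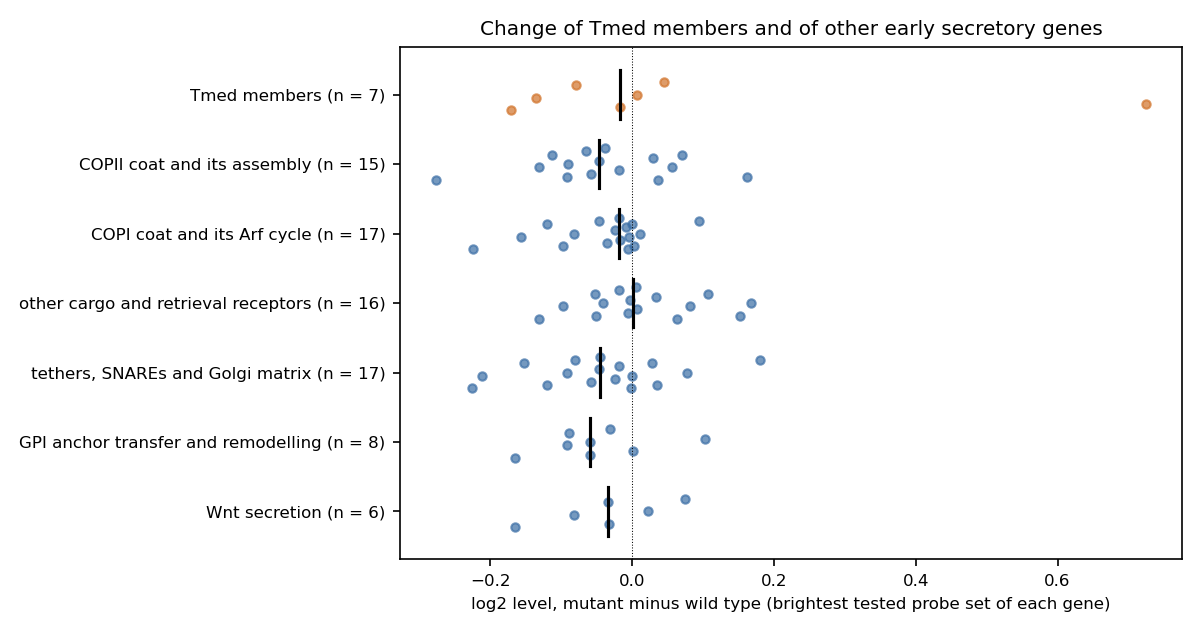
Log2 change, mutant minus wild type, on the brightest tested probe set of each gene (horizontal axis), for 7 Tmed members in orange and 6 lists of early secretory genes in blue, 1 point per gene, with black bars at the medians. Tmed5 lies at 0.73, and the 79 listed genes lie between -0.28 and 0.18.

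Tmed5 lies on chromosome 5, and the nearest genes with a tested probe set, 3 on each side, were examined for a change of the region. On their brightest probe sets Evi5, Dipk1a and Mtf2 on the side of lower coordinates had changes of -0.17 (adjusted p = 0.324), 0.02 (adjusted p = 0.842) and -0.23 (adjusted p = 0.349). Ccdc18, Dr1 and Pigg on the other side had changes of 0.04 (adjusted p = 0.758), 0.10 (adjusted p = 0.509) and -0.39 (adjusted p = 0.335), and the wild-type array F11 of Pigg was far below its group at 3.05. None of the 6 passed (limma), and 1, Evi5, had an unadjusted p under 0.05, where 15% of all genes had one. A dimmer probe set of Mtf2, 1418514_at, had a change of -0.32 ± 0.09 (SE, adjusted p = 0.162) with the mutant arrays all below wild type. That was so on 2.5% of all tested probe sets. Tmed2 is on chromosome 5 too, and the probe sets that match it are given above.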

How the data were processed

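Total RNA from 5 wild-type and 5 Npas2 mutant aorta samples was hybridised to Affymetrix MOE 430V2 arrays, per the labels. The authors deposited normalized log2 levels per probe set. The submitters' processing notes list GCRMA and MAS5 without versions and without saying which produced these values, and the log2 scale was inferred from their range. Batch dates were not stated.

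Probe sets exceeding the array median on 5 or more arrays were tested (22340 of 45101, 64 controls left out), mutant minus wild type, with limma 3.58.1 in R 4.3.3. P-values are two-sided and adjusted by Benjamini-Hochberg across that table, with 0.05 as threshold, and the script was tested on simulated data. Old platform symbols were updated through RefSeq (GRCm38.p6). Correlations used deviations from group means, with exact permutation within groups (14400 orders, smallest p 6.94e-05), and genes with several probe sets entered lists and marker means by the brightest.

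The members and lists were chosen with earlier results of these data known. Named were all Tmed probe sets, the called members of each early secretory list (at most 4) or else the 2 of largest change, the 5 genes most like Tmed5 and its 3 neighbours on each side. Alternatives changed the filter, normalization, variance model, array weights, covariates, threshold and arrays. Centring on tested probe sets, leaving out 4 muscle-rich arrays and the relations to marker means were chosen after seeing the data. Of 6 further marker lists (endothelium, adventitial fibroblast, cardiac muscle, leukocyte, erythroid, nerve) 0 members were called by limma and 4 had an unadjusted p under 0.05, of which 3 were leukocyte markers. Over all genes tested the share with an unadjusted p under 0.05 was 15%.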

Additional observations from a re-analysis of the deposited data

Results flagged for a closer look

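Single arrays stood far from the other 4 of their group in 6 of the 108 groups of values examined by Dixon's ratio, about as many as the 1 in 20 that chance gives. In the Tmed family these were Tmed3 on 1441846_x_at in wild type F15 (3.32, next value 3.45), Tmed4 on 1448422_at in mutant F20 (8.25, next value 8.39), Tmed5 on the dim 1445343_at in wild type F17 (3.20, next value 2.83) and Tmed7 on 1427314_at in wild type F16 (9.21, next value 9.01). Outside the family they were Pigg on 1444640_at in wild type F11 (3.05, next value 3.70) and Cox11 on 1429188_at in mutant F12 (7.31, next value 7.10). None was on the 3 Tmed5 probe sets whose groups did not overlap.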

How the results depend on the processing

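Of the Tmed probe sets 2 were called. The count was 1 without a filter on dim probe sets, in the ordinary one-way analysis, with the white adipocyte or skeletal muscle covariate and at an adjusted p of 0.01. It was 0 with the brown fat covariate and without the 4 muscle-rich arrays, and between 1 and 2 with an array left out. On 1424573_at Tmed5 lost its call only in the fits that gave 0, and on 1424574_at it had changes between 0.53 and 0.78 over the alternatives that kept all arrays. It was 3 with the filter at the 75th percentile, with quantile normalization, with arrays centred on their tested probe sets and at an adjusted p of 0.1, adding 1431789_s_at (adjusted p = 0.0324, 0.0459, 0.0346 and 0.0747). That centring turned the split of all calls from 21 higher and 27 lower to 34 and 18. No other member was called in any of 257 refitted values (lowest adjusted p = 0.251). No early secretory gene and no pair of members passed in any alternative run. Some uncalled changes turned sign. Tmed3 on 1416108_a_at was at 0.0078 (quantile normalization), 0.12 (brown fat covariate), 0.041 (centring on tested probe sets), 0.069 (without the muscle-rich arrays) and -0.063 to 0.035 with an array left out. Tmed7 on 1419917_s_at was at -0.013 (median centring) and -0.034 to 0.063 with an array left out. On 1429187_at it was at 0.033 (quantile normalization), 0.050 (brown fat), 0.0057 (white adipocyte), 0.058 (centring on tested probe sets) and -0.028 to 0.029 with an array left out. Tmed9 on 1439448_x_at was at -0.012 to 0.071 with an array left out. The brown fat covariate turned Tmed4 on 1448422_at from -0.08 to 0.042, Tmed7 on 1419918_at from -0.10 to 0.29 and Tmed10 on 1424707_at from -0.14 to 0.096. No paired analysis was possible because the groups share no replicate identifier.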
